A study of Mus musculus with 33 samples.

Results

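Mouse colon regulatory T cells (Treg) sorted as carrying neither TSLPR nor ST2 were compared between mice with colitis-associated cancer and naive mice. The comparison takes 8 of the 33 libraries of the series, those sorted as TSLPR-Il1rl1- (written TSLPR-ST2- below): 4 from cancer mice (mice 5 to 8) and 4 from naive mice (mice 1 to 4). Each library is the RNA of 200 sorted cells, amplified with SMART-Seq v4 and read as 58-base single reads. The cells were CD45+, TCR+, CD4+ and Foxp3+, so all groups share the Foxp3 gate. All mice had the genotype Foxp3-yfp B6, in which a fluorescent protein marks Foxp3-expressing cells.

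Cancer mice had been injected with azoxymethane (AOM, 10 mg/kg), a carcinogen, and then given dextran sodium sulfate (DSS), which injures the colon lining, in their drinking water for 7 days a cycle. The protocol gives 3 cycles for mice on the C57BL/6 background and takes the mice 2 weeks after the last DSS. Purchased mice were 7 to 12 weeks old. The labels do not say if naive mice were mock treated or if the groups were sorted together. Without a group given AOM only or DSS only, tumours, past colitis and the chemicals cannot be told apart. The same 8 mice also gave TSLPR-ST2+, TSLPR+ST2- and TSLPR+ST2+ Treg, which serve here to show whether a change differs between gates.

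TSLPR and ST2 are the receptors for TSLP and IL-33, cytokines that epithelial cells release when a barrier is stressed. Treg hold back inflammation in the gut, and many colon Treg carry ST2. Type I interferon binds the receptor chains IFNAR1 and IFNAR2, whose kinases JAK1 and TYK2 start a signal that turns on interferon-stimulated genes. IRF7, itself such a gene, amplifies the loop.

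The 8 libraries held 4910225 to 6927679 counts. Genes detected ran from 15234 to 15771 in cancer and from 15836 to 16149 in naive libraries, and mitochondrial counts from 1.25% to 1.60% and from 0.800% to 1.21%. Neither range overlapped between the groups, so both measures moved with cancer status. Foxp3 averaged 184 ± 22.2 CPM (counts scaled to each library's total; SD, n = 4) in cancer and 202 ± 20.3 in naive libraries. Crlf2, the TSLPR gene, averaged 15.04 ± 4.23 and 10.3 ± 1.08 CPM, and Il1rl1, the ST2 gene, 2.17 ± 3.77 and 1.70 ± 1.59 CPM. None of these 3 genes passed (edgeR adjusted p = 1.00, 0.664 and 1.00).

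In TSLPR-ST2- Treg of cancer mice, 12 of 101 interferon-list genes fell, Irf7, Isg15, Rsad2 and Mx1 among them, as did the AP-1 subunit Junb. The gene lists were chosen with earlier results of these data known. The protease Casp1, the class I gene H2-Q6, the HSP90 co-chaperones Stip1 and Chordc1 and the tetraspanin Cd9 rose. The edgeR quasi-likelihood test, with Benjamini-Hochberg adjustment over 14861 genes and a limit of 0.05, called 31 genes (0.209%). Of these, 9 were higher (0.0606% of genes tested) and 22 lower (0.148%) in cancer. At an unadjusted p under 0.05 there were 1101 genes (7.41%). The estimate was lower for 49.6% of all genes tested, and the median log2 fold change of all genes was 0. In 30 of the 31 called genes the 4 cancer and 4 naive libraries did not overlap; the exception, Il18, is described below. Among all genes tested the libraries did not overlap, with cancer lower, for 2.99%, and with cancer higher for 2.35%. In RNA from sorted pools, fewer cells that express a gene and less RNA per cell cannot be told apart.

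The interferon genes are described in the order of the pathway, from 6 lists with 101 tested genes between them. Of these, 12 were called lower and 0 higher, 87 had a lower estimate, and 55 were lower without overlap. Among all genes tested, 0.148% were called lower, 49.6% had a lower estimate and 2.99% were lower without overlap. Only Irf2 and Ifi27, singled out after their values were seen, were higher without overlap. The median log2 fold change of the 101 genes was -0.55, against 0 for all genes. As the lists were chosen with earlier results of these data known, these counts and this median describe them and are no independent support.

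Messages of the ligands were nearly undetected. Of 10 interferon ligand genes, 8 had 0 counts in all 8 libraries, among them Ifnb1, Ifna4 and Ifnl2, which allows up to 3 counts a library. Ifng, the type II interferon, had 6, 0, 5 and 35 counts in naive mice 1 to 4 and 0, 0, 0 and 6 in cancer mice 5 to 8. Ifnk had 5 counts, all in naive mouse 4.

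Of the 8 receptor chains and kinases tested, 0 passed (0.209% of all genes tested did), and the median log2 fold change was -0.11. The receptor chain Ifnar1 was the gene of this list that was lower without overlap, at 241 to 307 CPM in naive and 176 to 231 CPM in cancer libraries, and did not pass (edgeR adjusted p = 0.635).

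Among 9 interferon transcription factors, Irf7 passed and was lower, where 0.148% of all genes tested were called lower. Irf7 (chromosome 7, 141262706 to 141266481 of GRCm38, - strand) read 823, 759, 816 and 688 CPM in naive mice 1 to 4 and 487, 332, 341 and 410 CPM in cancer mice 5 to 8. The highest cancer library lay below the lowest naive library, and Irf7 was 1.97-fold lower (log2 fold change -0.98 ± 0.14 standard error (SE), edgeR adjusted p = 0.000629). Stat2 and Irf9, which act together downstream of the receptor, were each lower without overlap, with log2 fold changes of -0.75 and -0.36, and did not pass (edgeR adjusted p = 0.635 and 0.405).

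The sensors of foreign nucleic acid and their adaptors had the lowest median of the 6 lists, -0.79, with 17 of 18 estimates lower, 8 of them without overlap. None of the 18 passed, where 0.209% of all genes tested were called, and 2.99% of all genes were lower without overlap. Oasl2, which binds viral RNA, read 219, 212, 181 and 176 CPM in naive and 64.3, 73.8, 38.6 and 97.9 CPM in cancer libraries. These values do not overlap, yet edgeR's adjusted p was 0.283. The RNA-activated kinase Eif2ak2 averaged 30.8 ± 15.1 against 68.6 ± 8.28 CPM and the RNA helicase Ddx58 149.9 ± 43.7 against 275 ± 25.8 CPM (SD, n = 4), both without overlap (edgeR adjusted p = 0.270 and 0.296).

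The effectors carried most of the calls, with 10 of 37 called lower, 35 estimates lower, 30 lower without overlap and a median log2 fold change of -0.68. Among all genes tested, 0.148% were called lower and 2.99% were lower without overlap. Isg15, a ubiquitin-like modifier (chromosome 4, 156199424 to 156200818, - strand), read 181, 180.4, 185 and 191 CPM in naive mice 1 to 4 and 64.6, 61.2, 61.9 and 64.6 CPM in cancer mice 5 to 8. The libraries of each group lay close together, with SDs of 5.10 and 1.81 CPM and no overlap, and Isg15 was 2.92-fold lower (log2 -1.55 ± 0.22 SE, edgeR adjusted p = 0.000629).

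Rsad2, which encodes the antiviral enzyme viperin (chromosome 12, 26442746 to 26456452, - strand), read 109, 68.2, 132 and 100.3 CPM in naive and 31.0, 21.1, 12.7 and 15.3 CPM in cancer libraries. The naive libraries varied more than the cancer libraries but none overlapped them, and Rsad2 was 5.11-fold lower (log2 -2.35 ± 0.39 SE, edgeR adjusted p = 0.00418).

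Ifit3, an antiviral protein that binds other IFIT proteins (chromosome 19, 34583531 to 34588731, + strand), read 406, 364, 357 and 442 CPM in naive and 106, 136, 175 and 159 CPM in cancer libraries. It was 2.73-fold lower (log2 -1.45 ± 0.27 SE, edgeR adjusted p = 0.0123), and its near copy Ifit3b may share reads with it. Mx1, an antiviral GTPase gene that is defective in most inbred laboratory mice (chromosome 16, 97447035 to 97462907, - strand), read 155, 107, 59.6 and 119 CPM in naive and 7.63, 3.54, 13.1 and 39.2 CPM in cancer libraries. It was 6.92-fold lower (log2 -2.79 ± 0.53 SE, edgeR adjusted p = 0.0123), and cancer mouse 8 stood closest to the naive mice.

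Isg20, an exonuclease that degrades viral RNA, averaged 133 ± 6.93 CPM in cancer and 264 ± 41.9 CPM in naive libraries (SD, n = 4; 1.98-fold lower, edgeR adjusted p = 0.0104). Ifi27l2a, an interferon-induced gene, fell from 1228 ± 125 to 810 ± 62.8 CPM (1.52-fold, edgeR adjusted p = 0.00981). Rtp4, an interferon-induced protein first known for carrying receptors to the cell surface, fell from 447 ± 41.1 to 290 ± 34.6 CPM (1.54-fold, edgeR adjusted p = 0.0224). Slfn8, of the Schlafen family, fell from 391 ± 21.7 to 232 ± 46.1 CPM (1.69-fold, edgeR adjusted p = 0.0123). In each of these 4 genes the lowest naive library lay above the highest cancer library.

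The other called effectors, named after their values were seen, were Parp9 and Phf11c. Parp9, which acts with the ubiquitin ligase Dtx3l in the interferon response, fell from 232 ± 33.8 to 119 ± 31.5 CPM (1.95-fold, edgeR adjusted p = 0.0336). Phf11c, a member of a family of close copies, fell from 229 ± 25.7 to 130 ± 13.6 CPM (1.77-fold, edgeR adjusted p = 0.0457).

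**Figure D1:**
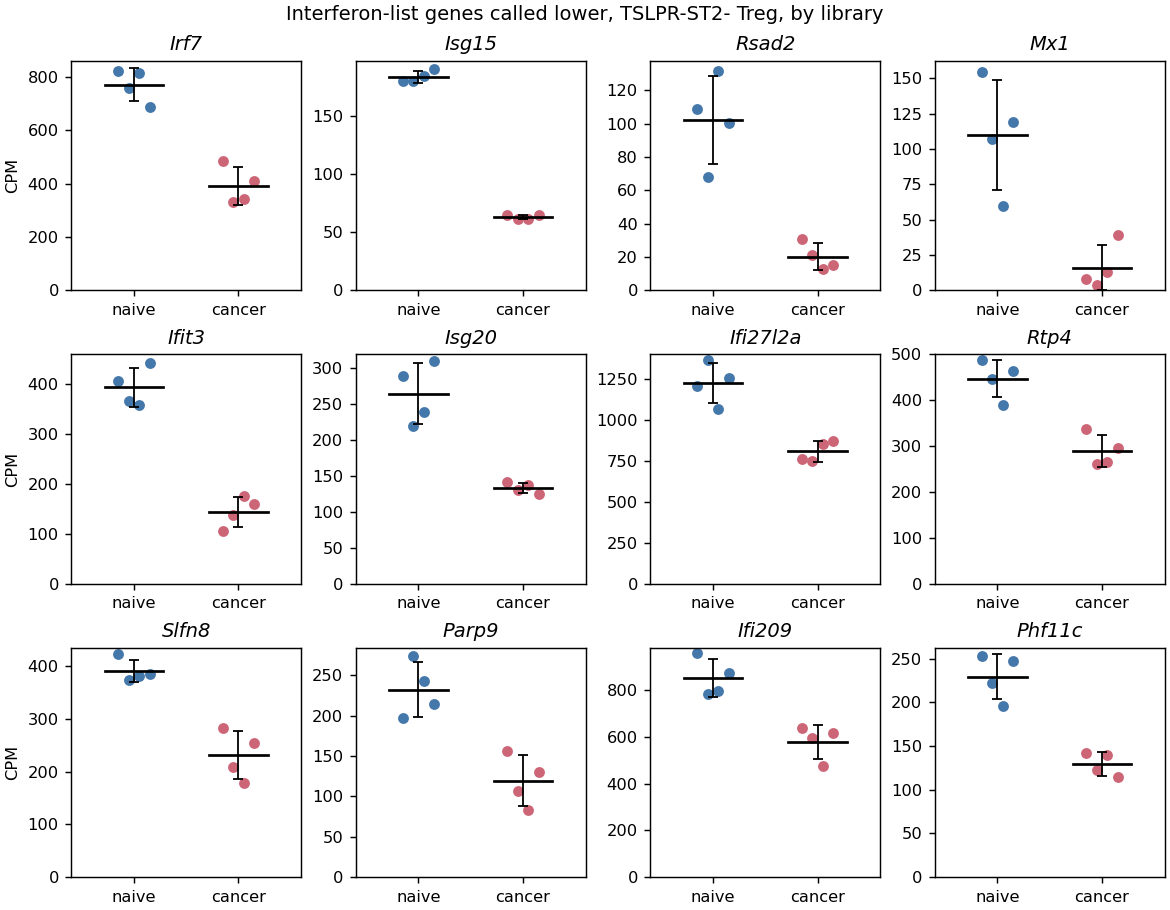
CPM (vertical axes, from 0) of the 12 interferon-list genes called lower, with 1 point per library, a bar at the mean of 4 libraries and whiskers of 1 SD, naive in blue and cancer in red. In each panel every cancer point lies below every naive point, and the Isg15 points are the tightest around their means.

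Upstream of the start sites of 4 of the fallen genes, the printed stretches show where the letters GAAA, any 2 bases and GAAA again occur, or TTTC, any 2 bases and TTTC again for the other strand. These letters are the core of the element that interferon-activated factors bind. The sequences are RefSeq's (GRCm38.p6), written 5′ to 3′ on the gene's strand, with the match in capitals.
Isg15: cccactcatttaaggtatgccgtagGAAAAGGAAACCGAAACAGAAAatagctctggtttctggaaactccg
Rsad2: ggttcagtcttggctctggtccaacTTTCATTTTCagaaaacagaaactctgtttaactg
Ifit3: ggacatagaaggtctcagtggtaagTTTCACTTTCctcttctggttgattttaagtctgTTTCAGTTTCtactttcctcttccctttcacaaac
Cxcl10: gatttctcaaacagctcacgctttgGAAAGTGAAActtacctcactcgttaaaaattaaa
The Isg15 stretch is chr4:156200850-156200921 (- strand) and holds 3 overlapping matches. The Rsad2 stretch is chr12:26456538-26456597 (- strand), the Ifit3 stretch chr19:34583348-34583441 (+ strand, 2 matches) and the Cxcl10 stretch chr5:92349068-92349127 (- strand).

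The match was searched on both strands of windows that run from 250 bases before to 50 bases after each start site. Among the 22 genes called lower, 17 had a window and 7 of them (41.2%) held a match: Cxcl10, H2-T23, Ifit3, Isg15, Lgals9, Rsad2 and Slfn8. Of the 9 genes called higher, 6 had a window and 0 held a match. The share was 3.94% (401 of 10166) among all tested genes with a window. A match is a run of letters, and neither its presence nor its absence shows binding.

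The interferon-induced GTPases gave 0 calls among 17, with 13 lower estimates, 8 of them without overlap, and a median of -0.35. Shares among all genes tested were 0.209% called and 2.99% lower without overlap. Gbp6 averaged 69.5 ± 13.1 against 118 ± 10.3 CPM and Gbp9 250.3 ± 25.7 against 427 ± 39.8 CPM (SD, n = 4), both without overlap (edgeR adjusted p = 0.0626 and 0.0643). Gbp4 and Gbp9 overlap in the annotation, so their counts are uncertain.

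In the Ifi200 family, whose members sense DNA and act in the nucleus, 1 of 12 passed, against 0.209% of all genes tested. Ifi209 (chromosome 1, 173630917 to 173647928, + strand) read 958, 786, 796 and 874 CPM in naive and 638, 594, 475 and 615 CPM in cancer libraries. The groups did not overlap, and Ifi209 was 1.47-fold lower (log2 -0.56 ± 0.09 SE, edgeR adjusted p = 0.00294). Ifi206 and Ifi208, close copies that may share reads, had log2 fold changes of -0.78 and -0.73 without overlap and did not pass (edgeR adjusted p = 0.0548 and 0.175).

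Of the 18 MHC class I genes and their helpers, 1 rose and 1 fell, against 0.0606% and 0.148% of all genes tested. H2-Q6, a nonclassical class I gene of the Qa-2 group (chromosome 17, 35424850 to 35430055, + strand), read 635, 613, 640 and 611 CPM in naive and 901, 899, 858 and 957 CPM in cancer libraries. It was 1.45-fold higher with no overlap (log2 0.53 ± 0.09 SE, edgeR adjusted p = 0.00418). Its near copy H2-Q7, singled out for that reason, averaged 1294 ± 53.1 and 1213 ± 73.5 CPM and did not pass (edgeR adjusted p = 0.969); how reads were shared between the copies is not stated in the labels. H2-T23, whose product Qa-1 binds inhibitory receptors of killer cells, averaged 1036 ± 68.4 CPM in cancer and 1335 ± 28.4 CPM in naive libraries (1.29-fold lower, edgeR adjusted p = 0.0457).

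Lower genes outside the interferon lists included Junb, Trafd1, Lgals9, Map6 and Cxcl10. Junb, an AP-1 subunit (chromosome 8, 84974484 to 84978718, - strand), read 775, 703, 729 and 766 CPM in naive and 355.7, 377, 436 and 463 CPM in cancer libraries. The groups lay well apart, and Junb was 1.82-fold lower (log2 -0.87 ± 0.14 SE, edgeR adjusted p = 0.00370). Of the 16 AP-1 and immediate early genes tested, Junb was the 1 that passed. The shares among all genes tested were 0.148% called lower and 2.99% lower without overlap. The list's median was -0.57 with 12 lower estimates, 5 of them without overlap, among them Fos (23.98 ± 7.14 against 90.3 ± 33.4 CPM, edgeR adjusted p = 0.517) and Dusp5 (69.3 ± 5.65 against 108 ± 22.05 CPM, edgeR adjusted p = 0.262). These genes also respond to tissue digestion and sorting, and the part of handling was not tested.

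Trafd1, an interferon-inducible brake on innate signalling (chromosome 5, 121371725 to 121385632, - strand), read 113, 104, 130.02 and 92.3 CPM in naive and 45.1, 27.9, 21.5 and 58.2 CPM in cancer libraries. It did not overlap between groups and was 2.87-fold lower (log2 -1.52 ± 0.27 SE, edgeR adjusted p = 0.00793). Lgals9, which encodes galectin-9, a ligand of the receptor TIM-3, fell from 801 ± 83.9 to 555 ± 40.0 CPM (1.44-fold, edgeR adjusted p = 0.0140). Map6, a protein that stabilises microtubules (chromosome 7, 99267447 to 99337137, + strand), read 27.4, 39.0, 45.7 and 44.3 CPM in naive and 6.07, 4.57, 9.02 and 8.09 CPM in cancer libraries. It was 5.62-fold lower with no overlap (log2 -2.49 ± 0.45 SE, edgeR adjusted p = 0.00897).

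Cxcl10, a chemokine that draws CXCR3-bearing T cells, was close to absent in cancer libraries. It had 115, 117, 76 and 18 counts in naive mice 1 to 4 and 0, 0, 0 and 10 in cancer mice 5 to 8. Scaled to depth and pooled, the naive level was 35.7 times the cancer level (95% counting interval 19.2 to 75.2), and all of the cancer counts came from mouse 8. The difference passed (edgeR adjusted p = 0.0224).

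Some called genes rested on few counts and, except Il18, were singled out after their values were seen. Stom, a membrane protein gene, had 48, 22, 91 and 25 counts in naive libraries and 0 in each cancer library. Against the 3 counts that a total of 0 allows over the group, it was at least 67.9-fold lower (edgeR adjusted p of its call = 0.0457). Fbxo27, a ubiquitin ligase subunit that recognises glycoproteins, had 48, 22, 55 and 43 counts against 0, 1, 0 and 0, a pooled ratio of 184 (95% counting interval 32.6 to 7313). The edgeR adjusted p of Fbxo27 was 0.0397. Il18, an inflammatory cytokine gene, had 0, 47, 3 and 2 counts in naive and 0 in all cancer libraries, so its call (edgeR adjusted p = 0.0380) rests on naive mouse 2 and was lost without that library (adjusted p = 0.431). These counts are of amplified reads without molecular identifiers, and the intervals and floors cover counting error only. A630023P12Rik, a transcript without an official name, averaged 91.5 ± 13.2 against 154 ± 17.7 CPM (1.68-fold lower, edgeR adjusted p = 0.0192).

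Among the higher genes, Casp1, whose protease cuts the precursors of IL-18 and IL-1 beta in inflammasomes (chromosome 9, 5298517 to 5307265, + strand), had the largest fitted fold. It read 18.6, 14.6, 7.03 and 2.72 CPM in naive and 44.5, 36.6, 78.3 and 39.4 CPM in cancer libraries. The lowest cancer library was above the highest naive library, and Casp1 was 4.61-fold higher (log2 2.21 ± 0.40 SE, edgeR adjusted p = 0.00981). Of the 13 caspase and inflammasome genes tested, Casp1 rose, Il18 fell as described, and 11 did not pass. Calls among all genes tested were 0.0606% higher and 0.148% lower. The related protease Casp4 averaged 22.99 ± 12.98 against 9.24 ± 6.93 CPM with overlap (edgeR adjusted p = 0.565). Gsdmd, the pore former that Casp1 cleaves, averaged 124 ± 21.6 against 158 ± 14.6 CPM and was lower without overlap (edgeR adjusted p = 0.662).

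Of the 20 genes tested for the protein-folding machine HSP90 and its co-chaperones, Stip1 and Chordc1 rose and 18 did not pass. Stip1, which hands client proteins from HSP70 to HSP90, read 539, 585, 610.2 and 546 CPM in naive and 793, 705, 777 and 840.5 CPM in cancer libraries (1.37-fold higher, edgeR adjusted p = 0.0336). Chordc1, which binds HSP90, read 237, 266, 276 and 282 CPM in naive and 365, 340.2, 385 and 379 CPM in cancer libraries (1.38-fold higher, edgeR adjusted p = 0.0407). Neither gene overlapped between groups. In the whole list 15 genes had a higher estimate, 7 were higher without overlap and the median log2 fold change was 0.21. Among all genes tested, 0.0606% were called higher and 2.35% were higher without overlap. HSP90 itself (Hsp90ab1) averaged 2599 ± 117 against 2143 ± 125 CPM without overlap and did not pass (edgeR adjusted p = 0.296).

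Cd9, a tetraspanin that organises membrane proteins (chromosome 6, 125460266 to 125494791, - strand), read 90.4, 93.4, 72.1 and 75.6 CPM in naive and 113, 154, 136 and 147 CPM in cancer libraries. It was 1.66-fold higher with no overlap (edgeR adjusted p = 0.0336). Cd9 was the 1 called gene among 13 tetraspanins, against 0.209% of all genes tested, and their median log2 fold change was -0.06. Tnfaip8, a regulator of cell death induced by TNF, rose from 173 ± 14.6 to 299 ± 33.3 CPM (1.73-fold, edgeR adjusted p = 0.0407). Leprotl1, a membrane trafficking gene, rose from 374 ± 19.4 to 502 ± 40.2 CPM (1.34-fold, edgeR adjusted p = 0.0457). Ttn, the giant muscle protein titin, rose from 12.04 ± 2.07 to 48.5 ± 17.5 CPM (4.01-fold, edgeR adjusted p = 0.0193). The remaining higher gene, AC149090.1, lies on the unplaced scaffold JH584304.1 and was singled out only to complete the count (304 ± 51.7 against 186 ± 19.1 CPM, edgeR adjusted p = 0.0440).

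The lists on Treg identity and state gave 0 calls. Since 0.209% of all genes tested were called, lists of this size would rarely hold a call, and 0 does not show that they were unchanged. The lists held 13 Treg core, 13 IL-2 receptor and STAT5, 20 effector and tissue Treg and 8 colon Treg and Th17 genes. They also held 14 genes of T cell receptor activation, 20 homing receptors and 10 genes of the naive and central T cell list. The lowest medians among these were -0.37, for IL-2 receptor and STAT5 targets (11 of 13 estimates lower, 5 without overlap) and for colon Treg and Th17 genes. Of all genes tested, 2.99% were lower without overlap. Il2ra, the alpha chain that raises the receptor's affinity for IL-2, averaged 578 ± 51.1 against 748 ± 127 CPM, and Gpr83, a receptor common on Treg, 450.0 ± 68.2 against 702 ± 75.7 CPM, both without overlap (edgeR adjusted p = 0.604 and 0.346). Ccr4, the receptor for CCL17 and CCL22, read 43.2 to 48.6 CPM in naive and 32.4, 29.9, 8.07 and 9.34 CPM in cancer libraries (edgeR adjusted p = 0.296).

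Proliferation, glycolysis and cholesterol synthesis genes also gave 0 calls, among 18, 15 and 15 tested, with medians of -0.44, -0.06 and -0.20. Here too the share called among all genes tested was 0.209%. Mitochondrially encoded genes gave 0 calls among 9, but all 9 estimates were higher in cancer, 5 without overlap, and the median was 0.45. Of all genes tested, 2.35% were higher without overlap. The largest was mt-Rnr1, a mitochondrial ribosomal RNA, at 933 ± 143 against 542 ± 91.1 CPM (edgeR adjusted p = 0.472).

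**Figure D2:**
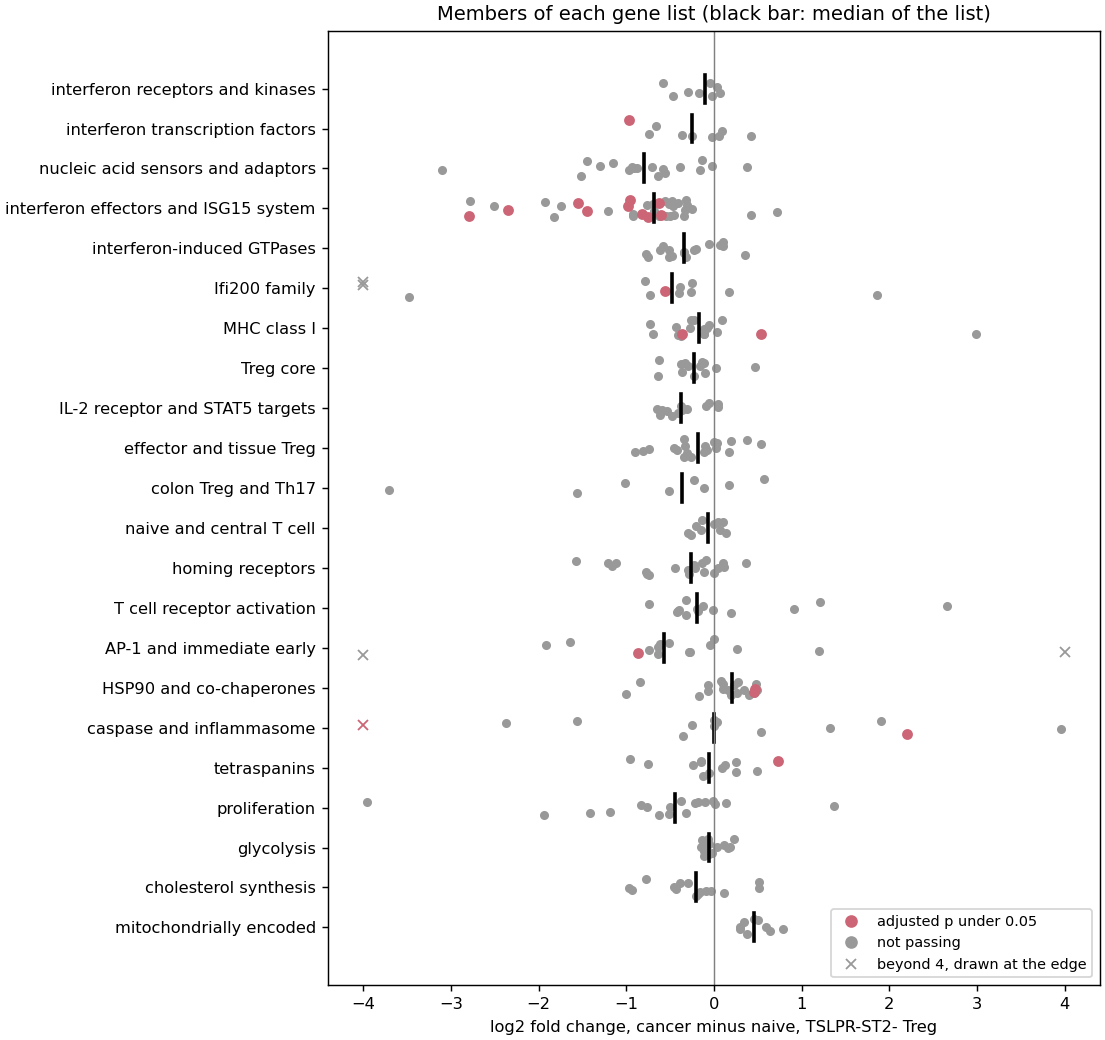
Log2 fold change, cancer minus naive (horizontal axis), of each tested gene in 22 lists in TSLPR-ST2- Treg, red where the adjusted p was under 0.05, with a black bar at each list's median and crosses for values beyond 4. Red points to the left gather in the interferon effectors, whose median is -0.68, and the mitochondrially encoded genes all lie to the right of 0.

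No marker gene of another cell type was called. As 0.209% of all genes tested were called, lists of this size would rarely hold a call. The 0 therefore does not show that such cells were absent. Without overlap, 2.99% of all genes tested were lower and 2.35% higher in cancer. Summed levels of 16 macrophage and dendritic cell markers ran from 448 to 655 CPM in cancer and from 419 to 1300.5 CPM in naive libraries, highest in naive mouse 2. Bst2 and Cst3 had the most counts in each library but that of naive mouse 2, where Cd74 had the most (1692). Of these 16, 12 had a lower estimate, 1 without overlap, and their median log2 fold change was -0.63, against -0.55 for the joined interferon lists; the list shares Bst2 with the interferon effectors. The part of such cells in the interferon differences was not tested. B and plasma cell markers ran from 843 to 1268 and from 856 to 1189 CPM, with a median log2 fold change of 0.15 among 9 genes. Most of that sum was Ighm (4985 to 8086 counts in cancer, 4475 to 7023 in naive libraries). Epithelial markers ran from 51.2 to 83.9 and from 31.5 to 64.6 CPM, with 6 of 10 estimates higher, 0 without overlap, and a median of 0.75. CD8, NK and gamma-delta T cell markers ran from 93.0 to 176 and from 108 to 185 CPM. Stromal and endothelial markers ran from 168 to 190 and from 170.3 to 241 CPM, with Col1a2, Dcn and Lum at 0. Almost all of that sum was Pecam1 (1078 to 1237 counts in cancer, 939 to 1580 in naive libraries). Mast cell markers ran from 2.51 to 6.01 and from 2.29 to 8.34 CPM, and the neutrophil markers S100a8, S100a9, Csf3r and Retnlg were at 0 in all 8 libraries. Of the helper cytokines, Il13, Il17a, Il17f, Il21 and Il22 were at 0. Without the naive mouse 2 library 14 genes were called, 12 lower and 2 higher, and Isg15, Irf7, Rsad2, Junb and H2-Q6 were among them.

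With the mitochondrial share of each library as a covariate 21 genes were called (17 lower), and with the number of genes detected 27 (24 lower). Of the 31 genes 18 and 19 passed in these fits, 16 of them in both. Irf7 (edgeR adjusted p = 0.00226 and 0.00310), Isg15 (0.00226 and 0.00204), Rsad2 (0.0203 and 0.0102), Junb (0.0161 and 0.00327), Casp1 (0.0415 and 0.0208) and H2-Q6 (6.03e-06 and 0.0362) passed in both. Of the 9 higher genes 6 passed in neither, with log2 fold changes that stayed above 0. They were Stip1 (edgeR adjusted p = 0.116 and 0.0677), Chordc1 (0.116 and 0.0999), Cd9 (0.124 and 0.132), Tnfaip8 (0.188 and 0.0784), Leprotl1 (0.183 and 0.0755) and AC149090.1 (0.134 and 0.0706). Of the 22 lower genes 4 passed in neither: Parp9, Stom, Fbxo27 and Il18.

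Each of the 31 genes kept its direction in each alternative that could test it. H2-Q6, Isg15, Irf7, Junb and Rsad2 passed in all 17 alternatives, and Ifi209 and Map6 in each of the 8 fits that left out a mouse. The other calls were lost without at least 1 mouse. Casp1 was lost without mouse 3 or 7 (edgeR adjusted p = 0.0892 and 0.0994), Trafd1 without mouse 7 (0.0531), Isg20 without mouse 1, 4 or 7 (up to 0.106) and Ifi27l2a without mouse 1, 4 or 5 (up to 0.0672). Mx1 was lost without mouse 1, 5, 6 or 7 (up to 0.0952), Ifit3 without mouse 2, 4, 5 or 6 (up to 0.0813) and Lgals9 without mouse 1, 5, 7 or 8 (up to 0.154). Slfn8 was lost without mouse 1, 2, 4, 6 or 7 (up to 0.162), Cxcl10 without mouse 1, 2, 5, 6 or 7 (up to 0.165) and Ttn without mouse 1, 2, 3, 4 or 6 (up to 0.108). Rtp4 kept its call only without mouse 3 or 5 (otherwise up to 0.181), Stip1 only without mouse 3 or 6 (up to 0.240), Parp9 only without mouse 3 or 5 (up to 0.257) and Cd9 only without mouse 5 (up to 0.202). Stom kept its call only without mouse 1 or 2 (otherwise up to 0.243), A630023P12Rik only without mouse 3 or 8 (up to 0.154) and AC149090.1 only without mouse 7 or 8 (up to 0.349). Phf11c kept it only without mouse 3 (up to 0.335) and Il18 only without mouse 1, 3 or 4 (up to 0.540). Chordc1, Tnfaip8, Leprotl1, H2-T23 and Fbxo27 passed in none of the 8 fits (edgeR adjusted p up to 0.239, 0.195, 0.379, 0.310 and 0.239).

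In a limma-voom model with the mouse as a random effect, which pairs the gates of an animal, 35 genes were called and 21 of the 31 were among them. Casp1 (limma adjusted p = 0.115), Map6 (0.234), Mx1 (0.0721), Ttn (0.617), Tnfaip8 (0.0547) and Cxcl10 (0.416) did not pass there. Il18 (0.673), Stom (0.393), Fbxo27 (0.0721) and AC149090.1 (0.0748) did not either.

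The same changes were then read in the other gates of the same mice. Cancer against naive, edgeR called 30 genes in TSLPR-ST2+ Treg (0.202%; 7 higher, 0.0471%), 7 in TSLPR+ST2- Treg (0.0471%; 4 higher, 0.0269%) and 618 in TSLPR+ST2+ Treg (4.16%; 247 higher, 1.66%). TSLPR-ST2- Treg shared 7 of its 31 calls with TSLPR-ST2+ (22.6% of the former, 23.3% of the latter), 3 with TSLPR+ST2- (9.68% and 42.9%) and 7 with TSLPR+ST2+ (22.6% and 1.13%). All shared calls had the same direction. Besides Irf7, Junb and Casp1, described below, Isg15, Rtp4, Ifi209 and Phf11c were shared with TSLPR-ST2+ Treg. H2-Q6 and Stip1 were shared with TSLPR+ST2- Treg, and Trafd1, Ifit3, Slfn8 and Chordc1 with TSLPR+ST2+ Treg. The 31 genes had the same sign in 30, 31 and 26 cases in these gates.

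Irf7 was the 1 gene called in all 4 gates, at 382 ± 29.8 against 665 ± 67.4 CPM in TSLPR-ST2+, 333 ± 39.3 against 551 ± 87.8 CPM in TSLPR+ST2- and 360.3 ± 74.9 against 577 ± 74.2 CPM in TSLPR+ST2+ Treg (edgeR adjusted p = 0.00825, 0.0280 and 0.00573). Junb and Casp1 were called in the TSLPR-ST2+ and TSLPR+ST2+ gates as well. Junb was 2.05-fold and 2.10-fold lower there, and Casp1 3.48-fold and 3.53-fold higher. In TSLPR+ST2- Treg, Junb was at 402 ± 139 against 611 ± 58.1 CPM and Casp1 at 88.5 ± 14.3 against 34.2 ± 12.7 CPM, and neither passed (edgeR adjusted p = 0.138 and 0.297).

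**Figure D3:**
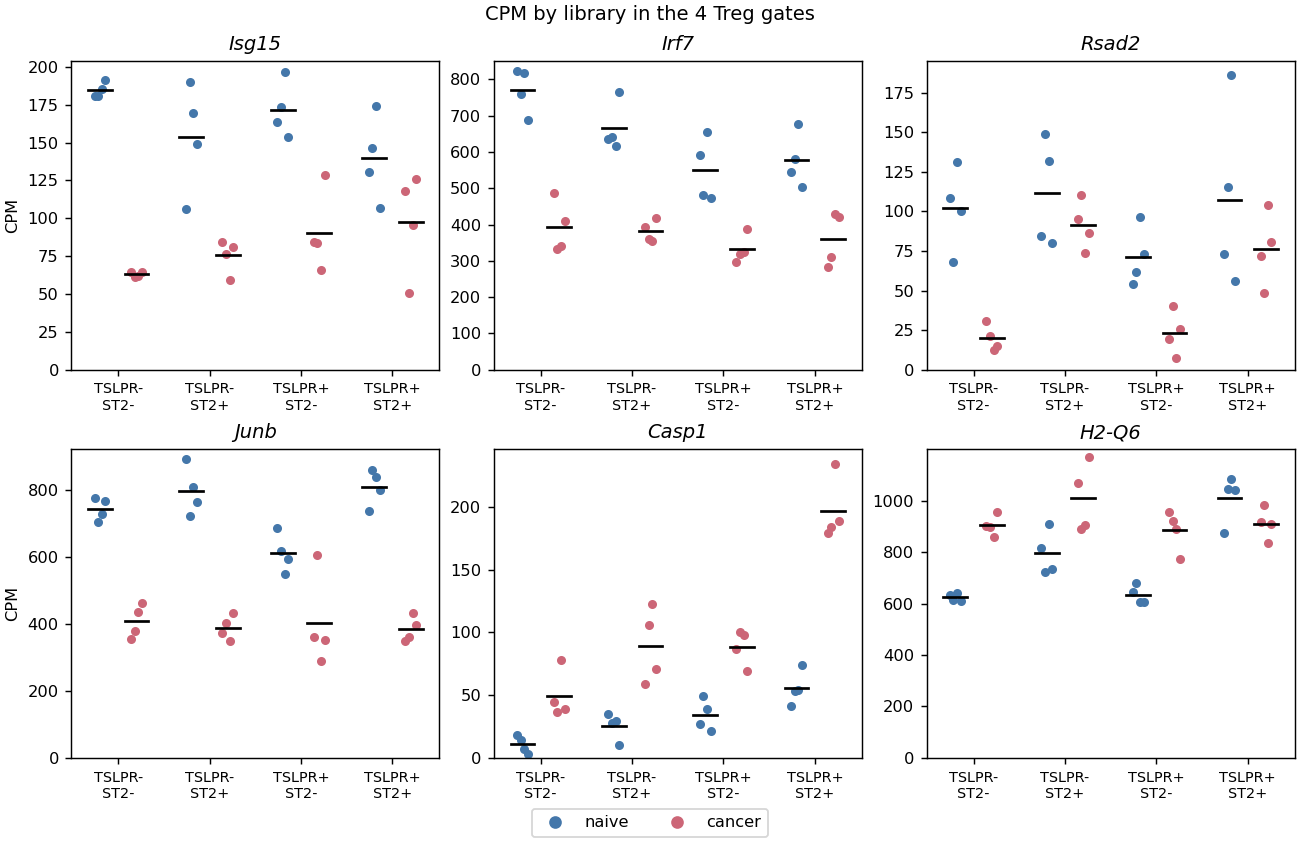
CPM (vertical axes, from 0) of 6 called genes in the 4 Treg gates, 1 point per library and a bar at the mean of 4 libraries, naive in blue and cancer in red. The mean of Irf7 and of Junb is lower in cancer in each gate, whereas Rsad2 and H2-Q6 overlap between groups in both TSLPR-ST2+ and TSLPR+ST2+ Treg. In TSLPR+ST2- Treg neither Rsad2 nor H2-Q6 overlaps, and H2-Q6 was called higher there (edgeR adjusted p = 0.0280).

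Of the 31 genes, 18 were called in no other gate, 13 of them lower and 5 higher, which does not show them unchanged there. Among these, Rsad2 averaged 91.5 ± 15.4 against 111 ± 34.6 CPM in the TSLPR-ST2+ gate and 76.3 ± 22.8 against 108 ± 58.1 CPM in the TSLPR+ST2+ gate, with overlap in both, and 23.3 ± 13.7 against 71.5 ± 18.5 CPM in TSLPR+ST2- Treg. Map6 averaged 41.9 ± 8.97 against 42.7 ± 19.6 CPM in TSLPR+ST2+ Treg, and H2-T23 1114 ± 135 against 1132 ± 110 CPM. In TSLPR-ST2+ Treg Map6 was also lower, without overlap, and did not pass (log2 fold change -1.38, edgeR adjusted p = 0.210). In TSLPR+ST2- Treg the log2 fold change of Map6 was -0.44, with overlap (edgeR adjusted p = 0.981). Cd9 averaged 60.1 ± 4.94 against 51.4 ± 10.4 CPM in TSLPR+ST2+ and 104 ± 14.3 against 93.7 ± 16.9 CPM in TSLPR-ST2+ Treg. In TSLPR+ST2- Treg Cd9 was higher without overlap, at 110 ± 6.78 against 82.8 ± 8.11 CPM, and did not pass (edgeR adjusted p = 0.550). Cxcl10, near 0 in the cancer libraries of TSLPR-ST2- Treg, averaged 29.1 ± 11.9, 27.0 ± 27.5 and 66.5 ± 37.9 CPM in cancer libraries of TSLPR-ST2+, TSLPR+ST2- and TSLPR+ST2+ Treg. Stom averaged 12.4 to 21.6 CPM in the cancer libraries of those gates. In TSLPR+ST2- Treg, Mx1, Isg20, Lgals9 and Ifi27l2a were also lower without overlap, with log2 fold changes of -1.70, -0.65, -0.44 and -0.49. They did not pass there (edgeR adjusted p = 0.364, 0.297, 0.138 and 0.115). AC149090.1 was higher without overlap in both TSLPR+ST2- and TSLPR+ST2+ Treg.

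**Figure D4:**
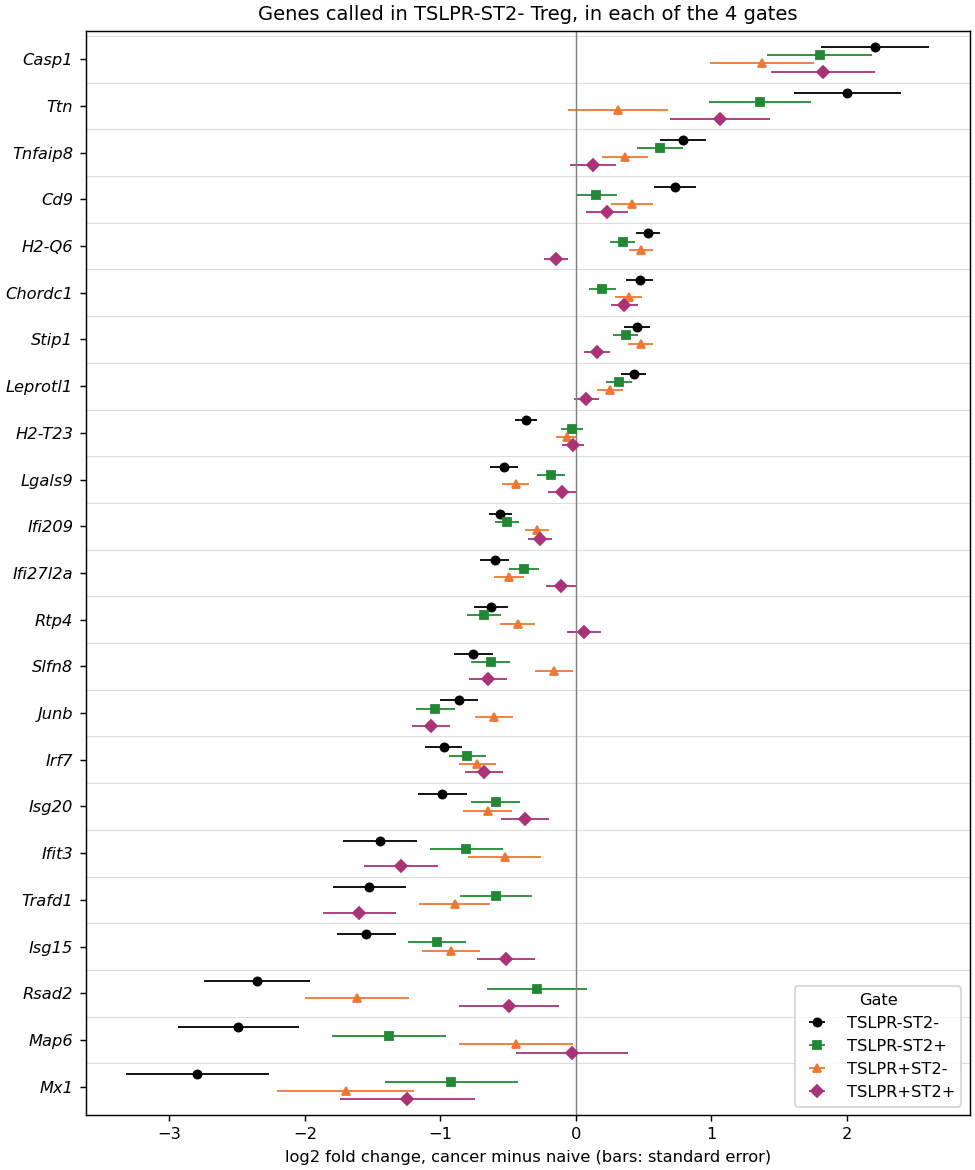
Log2 fold change, cancer minus naive (horizontal axis, bars of 1 SE), in each of the 4 gates for 23 of the called genes. Cxcl10, close to absent in the cancer libraries of TSLPR-ST2- Treg, is not drawn. The black circles of TSLPR-ST2- Treg lie farther from 0 than the other gates for genes such as Rsad2, Map6 and Cd9, while for Junb the green and purple symbols lie farther.

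The joined interferon lists had a median log2 fold change of -0.55 in TSLPR-ST2- Treg and of -0.42, -0.25 and -0.37 in TSLPR-ST2+, then TSLPR+ST2- and then TSLPR+ST2+ Treg. Of the 101 genes 12 were called lower in TSLPR-ST2- Treg and, in the same order, 6, 1 and 15 in the other gates, where 0.155%, 0.0202% and 2.5% of all genes tested were called lower. In 30 of the 31 genes, all but Junb, the effect in TSLPR-ST2- Treg was larger in size than the mean effect of the other 3 gates, a comparison tilted by choosing the genes in this gate.

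A change particular to TSLPR-ST2- Treg needs a test of the difference between gates. No gene passed when edgeR compared the cancer effect with its mean in the other 3 gates (lowest adjusted p = 0.547, 724 genes or 4.87% at an unadjusted p under 0.05). None passed against TSLPR-ST2+, TSLPR+ST2- or TSLPR+ST2+ Treg either (lowest adjusted p = 0.577, 1.00 and 0.116, with 910, 578 and 1324 genes at an unadjusted p under 0.05). For Rsad2 the log2 difference from the mean of the other gates was -1.55 (95% interval -2.44 to -0.66), for Map6 -1.88 (-2.89 to -0.86), for Isg15 -0.72 (-1.23 to -0.22) and for Cd9 0.47 (0.11 to 0.83). Their edgeR adjusted p values were 0.922, 0.922, 0.922 and 0.975. For Junb it was 0.04 (-0.29 to 0.37) and for Irf7 -0.24 (-0.56 to 0.08). For Cxcl10, which has few counts, it was -4.85 (-7.12 to -2.59, edgeR adjusted p = 0.547).

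DESeq2, on the same genes, called 55 for the difference from the mean of the other gates and 72, 48 and 69 against each gate in turn. Of the 31 genes described here, 5 were among the 55: Stom, Cxcl10, Fbxo27, Il18 and A630023P12Rik, of which the first 4 have few counts. None of the other 26 passed that comparison with either tool. Against single gates, DESeq2 also called H2-Q6 (adjusted p = 0.000133), Map6 (0.0167) and Rtp4 (0.0312) against TSLPR+ST2+ Treg, and Rsad2 (0.0275) against TSLPR-ST2+ Treg.

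**Figure D5:**
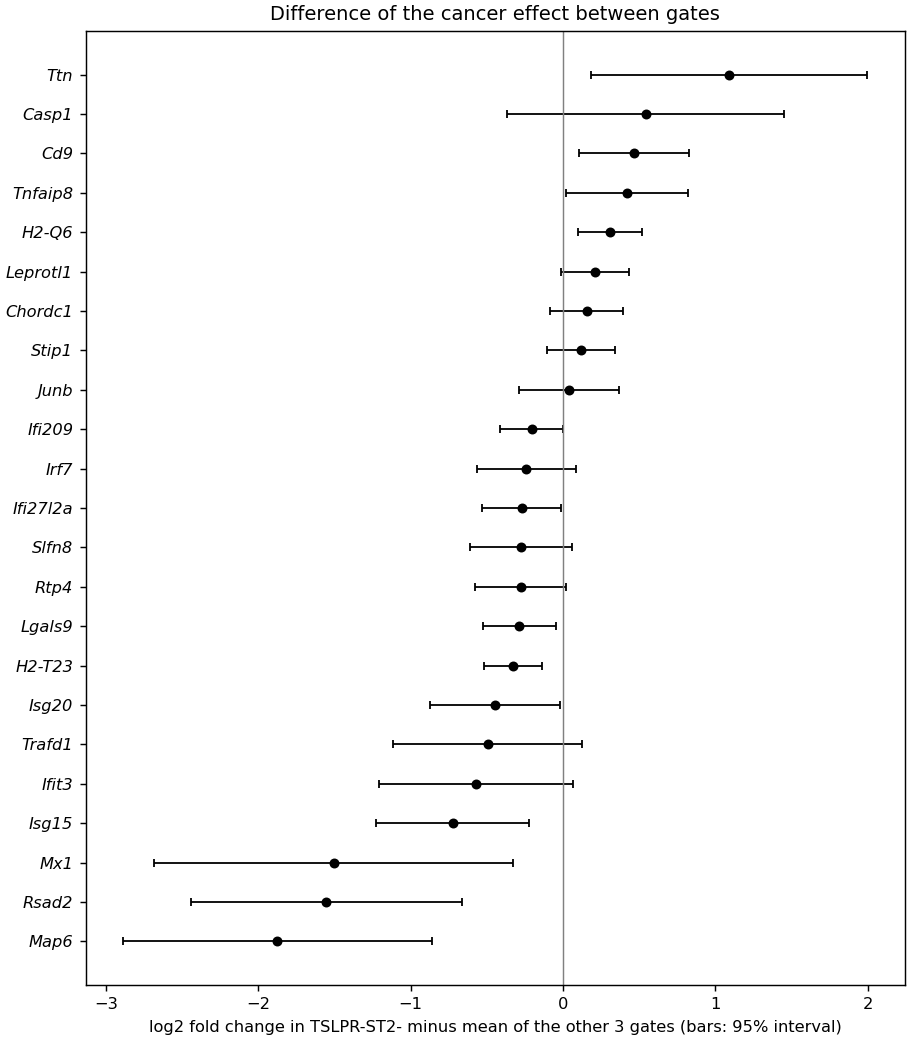
Difference between the log2 fold change in TSLPR-ST2- Treg and its mean in the other 3 gates (horizontal axis, bars of 95% intervals, not adjusted for the number of genes) for 23 called genes. Cxcl10, whose interval also leaves out 0, is not drawn. Intervals of Rsad2, Map6, Isg15 and Cd9 leave out 0, as do those of H2-T23, H2-Q6, Ttn, Mx1, Lgals9, Ifi27l2a, Isg20 and Tnfaip8. That of Junb is centred near 0, and no gene passed in edgeR after adjustment over all genes. The genes were chosen by their effect in TSLPR-ST2- Treg, which tilts the intervals away from 0.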

How the data were processed

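Deposited values were raw counts per gene, made by the authors with HTSeq 0.4.1 on GRCm38, per the submitters' processing notes, which also name Picard 1.134, FastQC 0.11.3 and SAMtools 1.2. For the aligner, annotation release and strand setting nothing is stated there. Of 53465 genes, 14861 passed filterByExpr (minimum count 10, minimum total 15). edgeR 4.0.16 (R 4.3.3) fitted a group-means quasi-likelihood model with TMM scaling and robust dispersion to all 32 Treg libraries, without a mouse term. Contrasts were cancer minus naive in TSLPR-ST2- Treg and its difference from the other gates. Benjamini-Hochberg adjustment ran over all genes tested. CPM uses TMM-scaled totals. SE is the size of the log2 fold change divided by the square root of F. Gene positions are GENCODE M21 (GRCm38); promoter windows are RefSeq's.

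The members and gene lists were chosen with earlier results of these data known. Named genes are the 3 sort genes, up to 15 called genes per direction with an official name and a mean of 10 CPM or more in the higher group, and up to 4 members of each list by smallest p. Alternatives were RLE scaling, DESeq2 1.42.0, no filter, each mouse left out, the 8 libraries alone, limma-voom 3.58.1 with the mouse as a block, edgeR with the mouse as a block, thinned libraries and 1 covariate. Fits with the number of genes detected, and without the naive mouse 2 library, were added after seeing the data. Mouse numbers in the labels mark the animal that gave all 4 gates. Deviations of same-mouse libraries from their group means correlated by 0.0135 on average (48 pairs, 3 over 0.1), against -0.00448 for other mice (144 pairs). Centring on group means largely sets the second value from the first, so it is no separate reference. Scripts were tested on simulated data.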

Additional observations from a re-analysis of the deposited data

Results flagged for a closer look

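Among 216 sets of 4 libraries (108 named genes, cancer and naive), 16 held a library that stood far from the other 3 in TSLPR-ST2- Treg; by chance about 1 in 20 sets would. Several are genes near the detection limit. In cancer libraries, Il1rl1 stood at 7.78 CPM in mouse 5 (0 to 0.884 in the others), Il23r at 0.623 CPM in mouse 5 (0 in the others), Il1r1 at 6.17 CPM in mouse 7 (0 to 0.467), Fbxo27 at 0.147 CPM in mouse 6, and Cxcl10 at 1.56, Ifng at 0.934 and Ifi204 at 0.156 CPM in mouse 8, each against 0. In naive libraries, Ifng stood at 6.35 CPM in mouse 4 (0 to 0.878) and Il18 at 9.80 CPM in mouse 2 (0 to 0.458).

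Better measured genes showed the same. Gbp6 was at 50.0 CPM in cancer mouse 7 against 75.0 to 77.1, Cxcr4 at 24.2 CPM in naive mouse 2 against 36.1 to 37.6, and mt-Rnr1 at 405 CPM in naive mouse 3 against 586 to 588. AC149090.1 was at 157 CPM in naive mouse 3 against 193 to 198. H2-T23 was at 1377 CPM and Ccr4 at 48.6 CPM in naive mouse 1, above 1317 to 1327 and 43.2 to 43.7, and Cd69 was at 391 CPM in naive mouse 3, above 359 to 363. For H2-T23, Ccr4, Cd69, mt-Rnr1 and AC149090.1 the distant naive library raises the distance to the cancer group, and for Gbp6 the distant cancer library does. Without mouse 3 the log2 fold change of AC149090.1 was 0.62, against 0.71 with all mice, and its call was lost (edgeR adjusted p = 0.349). Without mouse 1 the log2 fold change of H2-T23 was -0.35, against -0.37 with all mice.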

How the results depend on the processing

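The 31 calls became 125 with DESeq2 (87 lower, 38 higher, all 31 among them) and 11 to 24 when a mouse was left out; without the naive mouse 2 library 14 remained. With the 8 libraries alone 21 genes were called (18 lower), among them 13 of the 31; Casp1, Mx1, Cxcl10, Trafd1 and Ifi209 were not (edgeR adjusted p = 0.153, 0.131, 0.204, 0.0735 and 0.0735). Calls were 21 without the low-count filter (18 lower), 29 with RLE scaling (20 lower) and 27 in thinned libraries, which kept 26 of the 31. The fewer calls without a mouse come with fewer samples. DESeq2 called 55, 72, 48 and 69 genes for the differences between gates where edgeR called 0; the cause was not tested. Without a mouse, edgeR's difference from TSLPR+ST2+ Treg gave 0 to 1 genes: Zfp940 without mouse 5 and Amigo2 without mouse 7, both singled out after their values were seen. With the mouse as a replicate block, limma-voom called 35 genes in TSLPR-ST2- Treg, and limma-voom and edgeR both called 0 for each difference between gates. The cancer effect within a gate cannot be fitted with the mouse as a fixed block, since each mouse has 1 status. Among genes of the lists, Oasl2, Ddx58, Gbp4, Gbp6, Gbp9, Ifi204, Ifi206, Ifi208, Gpr83 and Fos passed under at least 1 alternative. The median of the interferon effectors was -0.61 without mouse 1 and that of the HSP90 list 0.16 without mouse 7. In thinned libraries Il18 (edgeR adjusted p = 0.132), Stom (0.0634), Chordc1 (0.0653), AC149090.1 (0.0653) and Phf11c (0.0529) lost their calls, while Cxcl10 and Fbxo27, also of few counts, passed (0.0164 and 0.0316).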
